A study of Rattus norvegicus with 8 samples.

Results

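A set of 31 genes of macrophages and of antigen presentation was followed in the periodontal ligament (PDL), the connective tissue that holds the tooth root to the bone, of young rats (Rattus norvegicus). The members were taken by name from a list, and all 31 are among the 17337 genes of the count table. They fall into 8 roles: 7 genes of leukocyte identity, 7 macrophage receptors, 2 signalling adaptors, 3 chains of the complement protein C1q, 3 lysosomal genes, 2 integrin subunits, 2 subunits of the NADPH oxidase and 5 genes of major histocompatibility complex (MHC) class II. Cervical PDL, from the part of the root next to the crown, was cut out by laser micro-dissection from 4 animals at postnatal day 18 (P18) and 4 animals at postnatal day 28 (P28). The animals grew normally and were not treated, so age is the factor that separates the groups, and the labels name no strain and no genotype. The teeth come into occlusal contact between these ages, and the comparison asks how PDL expression differs across that event. Each library was taken as 1 animal and is named by its age and subject number, as replicate 1 to 4. Subjects of the same number at P18 and P28 are different animals.

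Macrophages are resident phagocytes of connective tissue. They depend on the growth factor receptor encoded by Csf1r, engulf dying cells and debris, degrade them in lysosomes and coat targets with complement proteins such as C1q. Together with dendritic cells and B cells they load peptides onto MHC class II molecules, which in the rat are encoded by the RT1-B and RT1-D genes, and show them to T cells. In the tissue around an erupting tooth, cells of the same lineage also fuse into osteoclasts, the multinucleated cells that resorb bone.

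Levels are given as CPM, the raw count scaled to the library's size with TMM factors, in the order of replicates 1 to 4. Total counts per library ran from 5252693 to 26645656, and the members held 0.126% to 0.470% of them. Where a gene had 0 counts, a level of 3 counts is still possible, and this limit lay between 0.108 CPM (P18 replicate 2, the deepest library) and 0.624 CPM (P28 replicate 4, the shallowest). P28 replicate 4 also stood apart from the other P28 libraries, with correlations across genes of 0.750 to 0.766 where pairs of libraries of an age reached 0.835, and P28 replicate 2 was low for most members, so counts of calls are also given without each. The tissue label fitted its markers: the ligament genes Col1a1 and Postn lay at 37290.4 CPM or more and 13232 CPM or more in each of the 8 libraries. Macrophage genes were a minor part of the captures, and in bulk tissue fewer macrophages and less RNA per macrophage cannot be told apart.

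No member passed the test between ages. Of the 30 members that passed the filter on low counts, 0 were called higher and 0 lower at P28 (edgeR quasi-likelihood test, Benjamini-Hochberg adjusted p under 0.05 over 10472 genes), where 0.516% of all genes tested were called higher and 0.420% lower. At an unadjusted p under 0.05, 6 members lay higher (C1qa, C1qb, C1qc, Tyrobp, Cd68 and Cyba) and 1 lower (Coro1a), against 7.45% and 7.10% of all genes. The median log2 fold change of P28 over P18 was 0.18 over the 30 members and 0.0067 over all genes tested, with 18 members above 0 and 12 below (50.3% and 49.7% of all genes). The 4 P28 libraries lay wholly below the 4 P18 libraries for 3 members (Coro1a, Lst1 and RT1-Ba) and wholly above them for 0, where 5.54% and 4.91% of all genes did so. The other tools gave few calls: the Wald test of DESeq2 called C1qa higher and Coro1a lower (background 2.85% and 2.53%), and limma with voom and quality weights called 0 members in either direction (background 1.67% and 1.26%). Without P28 replicate 2, edgeR called C1qa and Cyba higher and 0 members lower (background 0.758% and 0.514%). That library was low for most members, so leaving it out favours higher values at P28. Without P28 replicate 4, edgeR called 0 members (background 1.02% higher and 0.970% lower). With the subject number as a block it called 0 members (background 0.153% higher and 0.0955% lower).

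**Figure D1:**
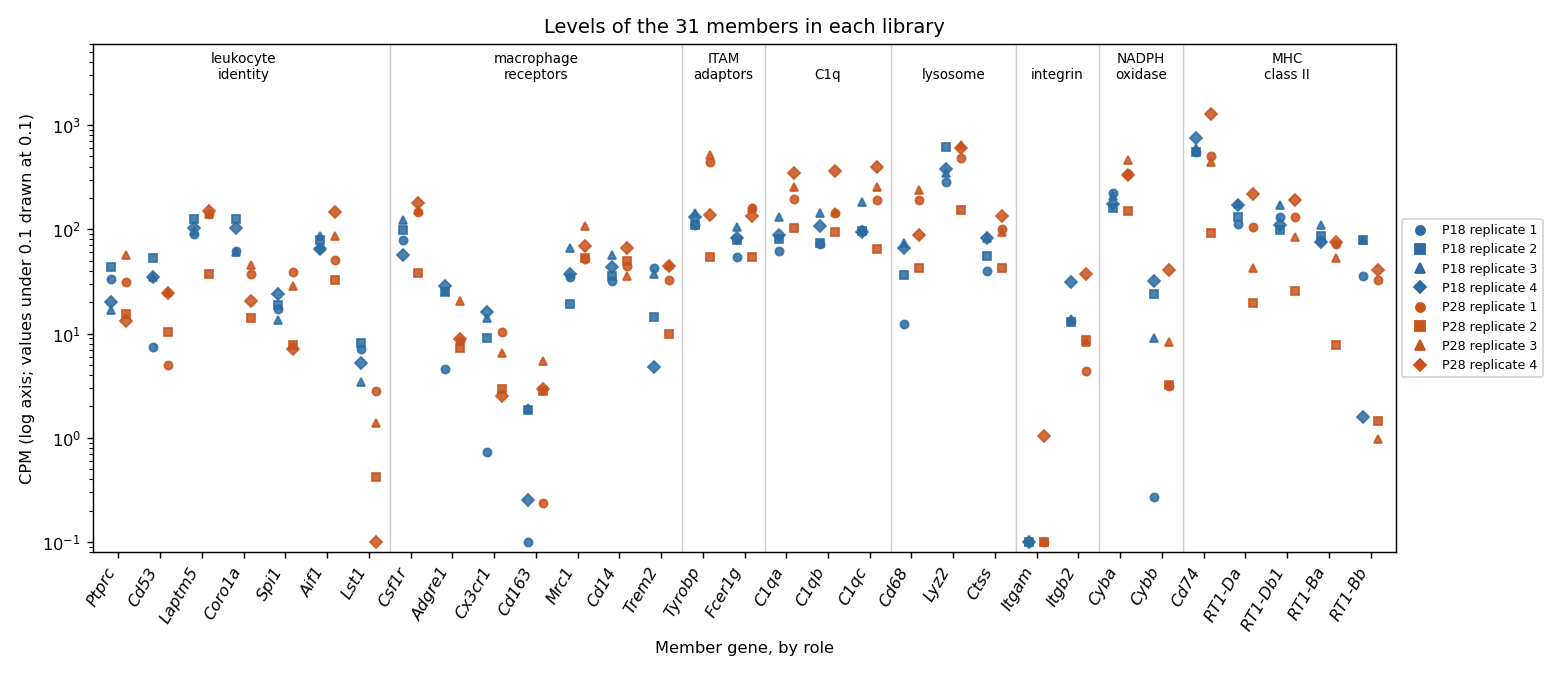
CPM (log axis) of the 31 members, grouped by role, in the 4 P18 libraries (blue) and the 4 P28 libraries (orange), with 1 point per library and 1 marker shape per replicate number. Most members overlap between ages, and Itgam lies at or near 0 in all 8 libraries. The P28 libraries spread more widely for C1q and for MHC class II other than RT1-Bb.

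C1q is the recognition protein that starts the classical complement pathway, and in tissue it is made mainly by macrophages. Its 3 chains are encoded by the neighbouring genes C1qb, C1qc and C1qa, with no other gene between them in the RefSeq table of assembly GRCr8. All 3 lay higher at P28 at an unadjusted p under 0.05. C1qa lay at 61.6, 80.2, 131 and 88.1 CPM (P18) and 196, 102, 253 and 348 CPM (P28). P28 replicates 1, 3 and 4 lay above every P18 library and P28 replicate 2 within the P18 range. The log2 fold change of C1qa was 1.32 ± 0.35 (SE; by edgeR, adjusted p = 0.0991), and its adjusted p was 0.0334 without P28 replicate 2 (log2 fold change 1.56). Leaving out any other library gave no call (adjusted p up to 0.253).

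C1qb lay at 73.1, 74.0, 145 and 107 CPM (P18) and 144, 94.9, 147 and 359 CPM (P28), so the ages overlapped, and P28 replicate 4 was by far the highest library. Its log2 fold change was 0.37 without that library and 0.90 ± 0.38 with all libraries (by edgeR, adjusted p = 0.304). C1qc lay at 97.9, 95.5, 183 and 93.7 CPM (P18) and 192, 65.2, 253 and 397 CPM (P28). Here P28 replicates 1, 3 and 4 again lay above every P18 library and P28 replicate 2 lay below every one (by edgeR, adjusted p = 0.340). The log2 fold change was 0.95 ± 0.43, and 0.54 without P28 replicate 4. Summed over the 3 chains, C1q stood at 233, 249.6, 459 and 289 CPM (P18) and 531, 263, 652 and 1105 CPM (P28).

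The start regions of C1qa and C1qb are shown because these genes lay higher together and because the ETS factor PU.1, encoded by the member Spi1, is known to drive many macrophage genes through sites with a GGAA core. The stretches run from 120 to 51 bases before the RefSeq start (GRCr8), at chr5:154419984-154420053 (minus strand) for C1qa and chr5:154407878-154407947 (minus strand) for C1qb, and capitals mark matches to GAGGAA or GGAAGT on either strand. No start region is printed for C1qc.

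C1qa: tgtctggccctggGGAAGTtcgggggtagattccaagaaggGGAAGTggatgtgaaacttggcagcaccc

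C1qb: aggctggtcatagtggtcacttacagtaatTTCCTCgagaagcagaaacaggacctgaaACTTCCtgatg

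Of the 24 members matched to a RefSeq start region, 16 held GAGGAA in the 250 bases before the start and 9 held GGAAGT. Over all 33469 start regions of the table, those letters were found in 23.3% and 19.2%. The motifs share the letters GGAA and can overlap, they were chosen after several had been looked at, and a match describes letters and not a bound site.

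Tyrobp and Fcer1g encode the adaptors DAP12 and the Fc receptor gamma chain, which carry the ITAM signalling motif for receptors such as Trem2 and the Fc receptors. Tyrobp lay at 110.0, 109, 144 and 131 CPM (P18) and 444, 54.1, 512 and 137 CPM (P28). P28 replicates 1 and 3 were the highest of all 8 libraries, P28 replicate 4 lay within the P18 range and P28 replicate 2 below it. The log2 fold change was 1.22 ± 0.52 (by edgeR, adjusted p = 0.308). Fcer1g lay at 54.6, 79.8, 106 and 83.0 CPM (P18) and 159, 53.8, 162 and 135 CPM (P28), with P28 replicates 1, 3 and 4 above every P18 library and P28 replicate 2 below every one (0.66 ± 0.34, adjusted p = 0.403).

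Cd68, a lysosomal membrane glycoprotein abundant in phagocytes, lay at 12.4, 36.7, 74.4 and 66.9 CPM (P18) and 191, 42.2, 239 and 88.4 CPM (P28). As for Tyrobp, P28 replicates 1 and 3 were the highest, and P28 replicate 2 lay within the P18 range. Its log2 fold change was 1.56 ± 0.57, the highest among the 30 tested members (by edgeR, adjusted p = 0.228). The same P28 replicates 1 and 3 had the highest summed osteoclast markers. The 10 osteoclast markers in the table, of 12 listed, summed to 1581, 1576, 1597 and 1841 CPM (P18) and 5743, 1199, 8086 and 2166 CPM (P28), led by Ctsk and Acp5. Acp5, an acid phosphatase of osteoclasts, lay at 131, 67.9, 57.5 and 104 CPM (P18) and 1555, 147, 2632 and 235 CPM (P28), with every P28 library above every P18 library. It was called higher at P28 (log2 fold change 3.67 ± 0.77, by edgeR adjusted p = 0.0494), and leaving out 1 library kept the call in 2 of 8 fits, without P28 replicate 2 or 4, with log2 fold changes of 2.84 to 4.04 over the 8. Of the 8 osteoclast markers tested, 5 lay higher at an unadjusted p under 0.05 and 1 was called (7.45% and 0.516% of all genes). The 1 below 0 was Itgb3 (log2 fold change -1.51 ± 0.91, by edgeR adjusted p = 0.491). Oscar and Calcr had too few counts to be tested, and Ocstamp and Dcstamp were not analysed here. The part of osteoclasts in the values of Tyrobp and Cd68, which osteoclasts are also known to express, was not tested.

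The remaining lysosomal members differed less. Lyz2, lysozyme, lay at 282, 613, 349 and 381 CPM (P18) and 486, 152, 641 and 598 CPM (P28) (log2 fold change 0.21 ± 0.38, by edgeR adjusted p = 0.854). Ctss, the protease cathepsin S that trims the class II invariant chain, lay at 40.0, 55.5, 82.4 and 81.8 CPM (P18) and 101, 42.4, 95.2 and 134 CPM (P28) (0.52 ± 0.36, adjusted p = 0.551). In both genes P28 replicate 2 was the lowest P28 library and the ages overlapped.

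**Figure D2:**
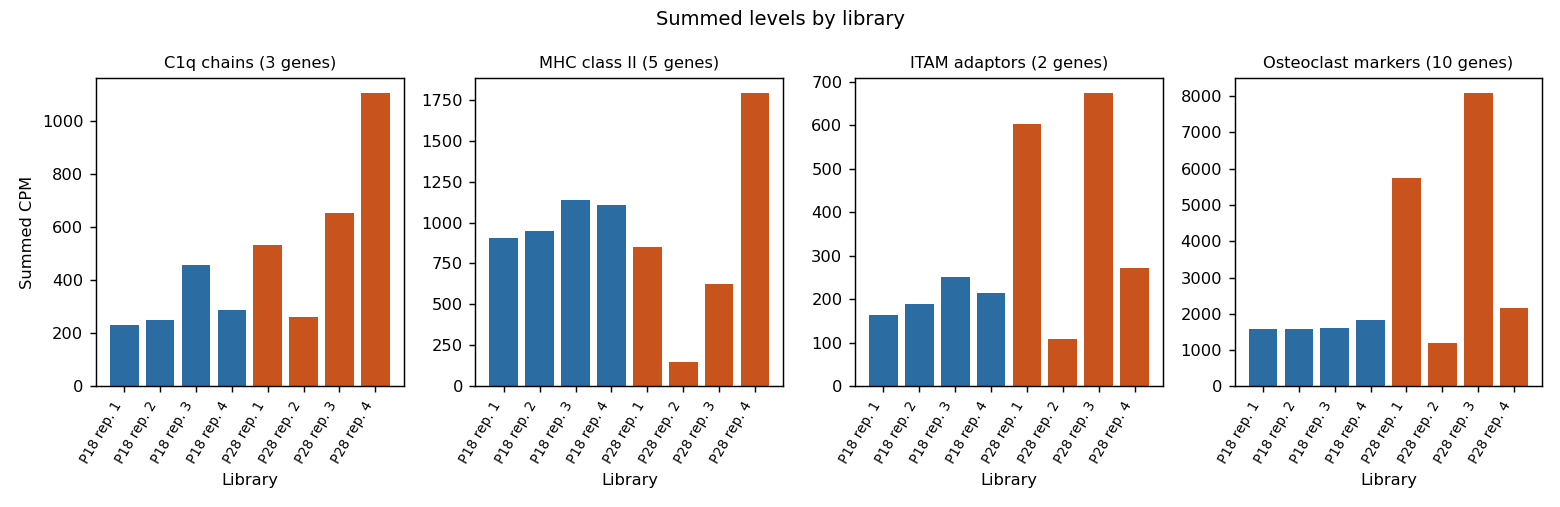
Summed CPM of the 3 C1q chains, the 5 MHC class II members, the 2 ITAM adaptors and the 10 osteoclast markers in each library, P18 in blue and P28 in orange, with axes that start at 0. C1q and class II peak in P28 replicate 4, the adaptors and the osteoclast markers in P28 replicates 1 and 3, and P28 replicate 2 is the lowest P28 library in all 4 panels.

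The NADPH oxidase of phagocytes makes superoxide with a membrane core of p22phox (Cyba) and gp91phox (Cybb), whose p22phox subunit also serves oxidases of other cells. The subunit genes did not follow each other. Cyba lay at 223, 159, 207 and 174 CPM (P18) and 341, 151, 466 and 331 CPM (P28), with P28 replicates 1, 3 and 4 above every P18 library and P28 replicate 2 below every one. Its log2 fold change was 0.76 ± 0.29 (by edgeR, adjusted p = 0.247), and 0.99 without P28 replicate 2 (adjusted p = 0.0461). Leaving out any other library gave no call (adjusted p up to 0.521). Cybb lay at 0.271, 23.9, 9.05 and 31.9 CPM (P18) and 3.11, 3.24, 8.32 and 40.4 CPM (P28), a spread within each age far wider than the difference between them (-0.25 ± 1.12, adjusted p = 0.947).

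The integrins of the list are the alpha M subunit (Itgam, CD11b) and the beta 2 subunit (Itgb2, CD18), which pair into complement receptor 3. Itgam is often used as a marker of macrophages, monocytes and neutrophils. It had 1, 0, 0 and 0 counts at P18 and 0, 0, 1 and 5 counts at P28, and is the member that was not tested. The gene annotation behind the counts is not given, so low expression and reads not assigned to the gene cannot be told apart. Itgb2, which also pairs with other alpha subunits, lay at 13.2, 13.005, 13.9 and 30.95 CPM (P18) and 4.40, 8.67, 8.24 and 37.7 CPM (P28). Replicate 4 was the highest library at each age, and the log2 fold change was -0.28 ± 0.73 (by edgeR, adjusted p = 0.904).

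Among the macrophage receptors none passed the test, and no receptor separated the ages. Csf1r, the receptor for CSF1 and IL-34 on which macrophages depend, lay at 78.5, 99.2, 122 and 56.2 CPM (P18) and 148, 37.8, 155 and 178 CPM (P28). P28 replicates 1, 3 and 4 lay above every P18 library and P28 replicate 2 below every one, the same order of libraries against the P18 range as in C1qc and Fcer1g (log2 fold change 0.54 ± 0.41, by edgeR adjusted p = 0.590). Mrc1, the mannose receptor CD206, lay at 35.2, 19.2, 66.2 and 37.6 CPM (P18) and 51.7, 53.3, 107 and 68.5 CPM (P28). It differed from Csf1r in P28 replicate 2, which here lay inside the range of the other libraries (0.82 ± 0.39, adjusted p = 0.364).

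Adgre1, which encodes the F4/80 antigen, lay at 4.61, 24.96, 25.4 and 28.8 CPM (P18) and 8.57, 7.31, 20.5 and 8.95 CPM (P28). At P18 replicate 1 was low, and at P28 replicate 3 was high (-0.89 ± 0.67, by edgeR adjusted p = 0.596). Cx3cr1, the fractalkine receptor of resident macrophages and monocytes, ran from 0.723 CPM (P18 replicate 1) to 16.1 CPM (P18 replicate 4) at P18 and from 2.497 to 10.3 CPM at P28. Its ages overlapped too (-0.83 ± 1.00, adjusted p = 0.757). Cd163, a haemoglobin scavenger receptor, stayed at 5.46 CPM or below in each library, with 1, 51, 45 and 5 counts at P18 and 4, 27, 67 and 14 counts at P28 (1.46 ± 1.39, adjusted p = 0.687).

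Cd14, a co-receptor for bacterial lipopolysaccharide, lay at 41.9 ± 10.97 CPM (P18) and 49.0 ± 13.1 CPM (P28) (SD, n = 4 per age; log2 fold change 0.22 ± 0.32, by edgeR adjusted p = 0.807). Trem2, a lipid-sensing receptor that signals through Tyrobp, lay at 42.8, 14.3, 37.4 and 4.79 CPM (P18) and 32.3, 9.82, 45.8 and 44.9 CPM (P28). P18 replicate 4 was the lowest library, and the ages overlapped (0.42 ± 0.66, adjusted p = 0.827). Tyrobp was highest in P28 replicates 1 and 3, while Trem2 in those libraries was close to its level in P18 replicates 1 and 3.

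Among the leukocyte identity genes, Coro1a, an actin regulator of the haematopoietic lineage, lay at 62.3, 126, 60.3 and 102 CPM (P18) and 36.9, 14.1, 45.2 and 20.6 CPM (P28), so that every P28 library was below every P18 library. Its log2 fold change was -1.58 ± 0.41 (by edgeR, adjusted p = 0.0937), and leaving out 1 library gave -1.87 to -1.35. Lst1, a short leukocyte transcript of the MHC class III region, lay at 7.14, 8.18, 3.46 and 5.19 CPM (P18) and 2.82, 0.418, 1.39 and 0 CPM (P28). It too did not overlap between ages, on few counts (79, 227, 81 and 102 at P18 and 48, 4, 17 and 0 at P28; -2.34 ± 1.28, adjusted p = 0.440). Both genes are expressed well beyond macrophages.

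The levels of other blood cell markers are set beside these genes. The 7 B and plasma cell markers in the table summed to 26.9 to 194 CPM at P18 and 2.53 to 32.6 CPM at P28, led by Cd79b and Igll1. All 4 that were tested had log2 fold changes below 0, with 3 at an unadjusted p under 0.05 and 0 called. Over all genes, 7.10% lay lower at that unadjusted p. Pax5 and Vpreb1 had too few counts to be tested, and Cd79a and Jchain were not analysed here. The 13 neutrophil markers summed to 37.4 to 968 CPM at P18 and 26.0 to 300.2 CPM at P28, led by S100a9 and S100a8, with 8 of 9 tested members below 0 and Ltf at 0 counts in all 8 libraries. The 6 erythroid markers summed to 2673 to 8856 CPM and 675 to 4522 CPM, led by Hbb and Hbb-b1, with 6 of 6 tested members below 0, 5 of them at an unadjusted p under 0.05 and 0 called. The part of these cells in the values of Coro1a and Lst1 was not tested.

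The other identity genes overlapped between ages. Ptprc, the pan-leukocyte phosphatase CD45, lay at 33.5, 43.9, 16.7 and 20.01 CPM (P18) and 31.2, 15.5, 57.1 and 13.3 CPM (P28) (0.039 ± 0.54, by edgeR adjusted p = 0.984). The CPM of Coro1a over that of Ptprc, within a library, gave ratios of 1.86, 2.87, 3.61 and 5.12 at P18 and 1.18, 0.912, 0.791 and 1.55 at P28. Those ratios did not overlap. The levels of Coro1a alone did not overlap either, so the ratios are no separate evidence of a difference, and no test was made of them.

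Laptm5, a lysosomal membrane protein of blood cells, lay at 90.2, 124, 96.8 and 103 CPM (P18) and 139.7, 37.2, 139 and 150.2 CPM (P28). The P28 libraries other than replicate 2 lay within 139 to 150.2 CPM, above every P18 library, and replicate 2 was the lowest of all (0.17 ± 0.36, by edgeR adjusted p = 0.875). Aif1, the macrophage protein IBA1, lay at 65.9, 79.0, 85.9 and 64.2 CPM (P18) and 50.5, 32.9, 86.0 and 147 CPM (P28), with P28 replicate 4 the highest and P28 replicate 2 the lowest library (0.097 ± 0.39, adjusted p = 0.942). Spi1, which encodes the transcription factor PU.1, lay at 17.3, 18.7, 13.4 and 24.1 CPM (P18) and 39.2, 7.83, 28.9 and 7.07 CPM (P28). Its P28 libraries lay on both sides of the P18 range, replicates 1 and 3 above it and replicates 2 and 4 below it (0.18 ± 0.62, adjusted p = 0.933). The tetraspanin gene Cd53 lay at 7.41, 53.4, 34.9 and 35.1 CPM (P18) and 4.99, 10.3, 25.2 and 24.6 CPM (P28) (-1.01 ± 0.66, adjusted p = 0.523).

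**Figure D3:**
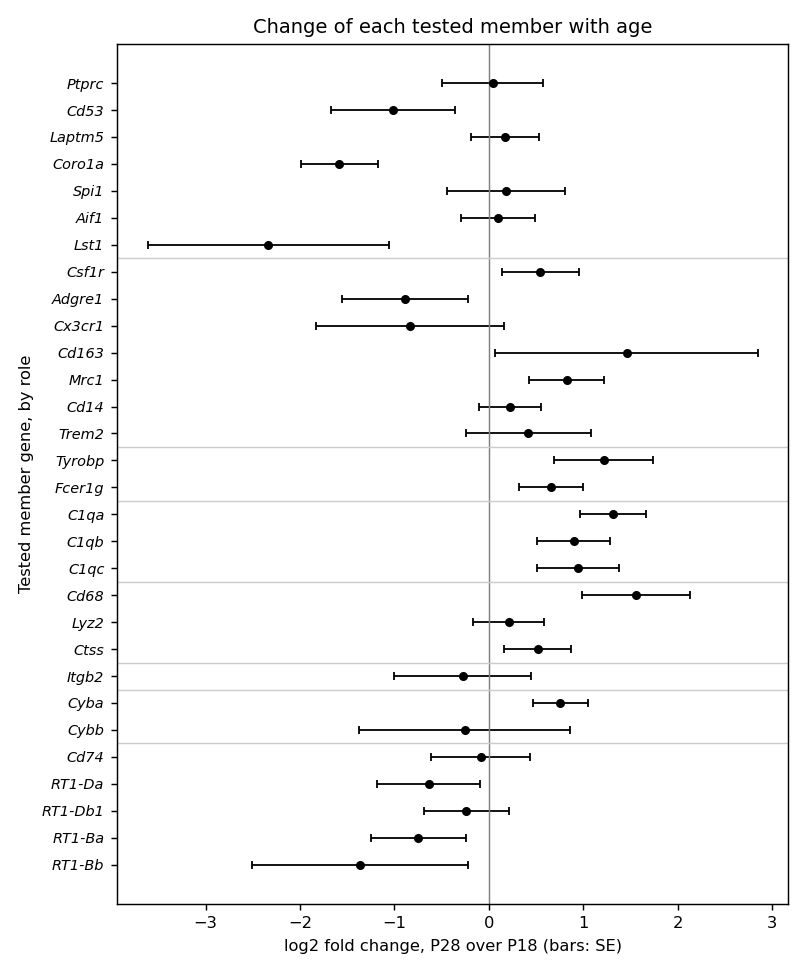
Log2 fold change of P28 over P18 for the 30 tested members, by role, as points with bars of 1 SE, and a line at 0. The 3 C1q chains and both ITAM adaptors lie to the right of 0 and the 5 MHC class II members to the left, and the bars of Lst1, Cd163, RT1-Bb and Cybb span more than those of the C1q chains.

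MHC class II molecules are pairs of an alpha and a beta chain. In the rat, RT1-Da and RT1-Db1 encode the chains of the D molecule and RT1-Ba and RT1-Bb those of the B molecule, and Cd74 encodes the invariant chain that escorts both to the loading compartment. All 5 had log2 fold changes below 0 and none passed the test, with a median of -0.63. Cd74 lay at 549, 555, 604 and 748 CPM (P18) and 509.5, 91.8, 446 and 1267 CPM (P28). P28 replicate 4 was the highest library, P28 replicate 2 the lowest, and the remaining pair lay below the P18 range (log2 fold change -0.087 ± 0.52, by edgeR adjusted p = 0.963).

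The same libraries stood at the ends for both chains of the D molecule. RT1-Da lay at 114, 132, 175 and 173 CPM (P18) and 105, 19.6, 42.5 and 216 CPM (P28) (-0.63 ± 0.55, by edgeR adjusted p = 0.650), and RT1-Db1 at 131, 98.1, 171 and 110.0 CPM (P18) and 132, 25.8, 84.6 and 191 CPM (P28) (-0.24 ± 0.45, adjusted p = 0.861). P28 replicate 4 was the highest and P28 replicate 2 the lowest library for each. RT1-Ba lay at 77.2, 85.6, 109.9 and 75.4 CPM (P18) and 71.6, 7.73, 53.2 and 75.3 CPM (P28), where every P28 library was below every P18 library, P28 replicate 4 by 75.3 against 75.4 CPM (-0.75 ± 0.51, adjusted p = 0.545). With voom and quality weights the log2 fold change of Cd74 was -0.88 and that of RT1-Da -1.36 (adjusted p = 0.329 and 0.101). Without P28 replicate 2 the value for Cd74 was above 0, at 0.27.

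RT1-Bb did not keep to its partner chain. It lay at 35.8, 79.2, 78.9 and 1.58 CPM (P18) and 32.9, 1.46, 0.979 and 40.8 CPM (P28), with 396, 2198, 1848 and 31 counts at P18 and 561, 14, 12 and 196 counts at P28. In P18 replicate 4 and P28 replicate 3 it had 31 and 12 counts beside 1482 and 652 counts of RT1-Ba, so the ratio of RT1-Bb to RT1-Ba counts was 0.0209 and 0.0184 there. In P28 replicate 2 the ratio was 0.189, on 14 and 74 counts, and in the other 5 libraries it lay between 0.460 and 0.925. The low libraries occurred at both ages, and the log2 fold change was -1.37 ± 1.14 (by edgeR, adjusted p = 0.640). RT1 genes belong to a family of similar copies and differ between rat strains. How reads shared between copies were counted is not given in the sources used here, so RT1 values are uncertain in that respect.

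Class II genes are classically controlled by a module of X and Y boxes shortly before the start, bound by RFX and NF-Y factors and by the co-activator encoded by Ciita. The stretch is shown for the 4 chain genes, which all hold the letters of the Y box, and not for Cd74, which does not hold them. The stretches end 31 bases before the RefSeq start (GRCr8), with capitals for GCAACNG, a core of the X box, and for CTGATTGG, the Y box. They lie at chr20:4515290-4515384 (plus strand), chr20:4560193-4560287 (minus strand), chr20:4576932-4577026 (plus strand) and chr20:4604149-4604243 (minus strand), in the order printed.

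RT1-Da: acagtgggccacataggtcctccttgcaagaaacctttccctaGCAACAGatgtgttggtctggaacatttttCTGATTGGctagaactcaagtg

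RT1-Db1: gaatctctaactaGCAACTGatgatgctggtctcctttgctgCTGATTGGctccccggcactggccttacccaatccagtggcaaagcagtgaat

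RT1-Ba: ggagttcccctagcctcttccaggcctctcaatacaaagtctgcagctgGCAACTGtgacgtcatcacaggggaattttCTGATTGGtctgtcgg

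RT1-Bb: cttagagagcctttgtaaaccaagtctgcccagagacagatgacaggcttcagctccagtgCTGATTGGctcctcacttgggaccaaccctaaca

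All 4 chain genes, and so 4 of the 5 class II members, held CTGATTGG. Of all 33469 RefSeq start regions, 3.19% held it in the 250 bases before the start on either strand. GCAACNG was found in RT1-Da, RT1-Db1 and RT1-Ba, starting 30, 29 and 30 bases before the Y box, and in 9.78% of all start regions. Each set of letters was found in 5 of the 24 members matched to a start region. Outside class II these were C1qb and Ctss for GCAACNG and Cd68 for CTGATTGG. Neither set of letters was found in the 250 bases before the start of Cd74, and the X box letters were not found in that window of RT1-Bb.

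The balance of C1q to class II, both products of macrophages, separated the ages in these 8 libraries. The summed C1q level divided by the summed class II level within a library was 0.257, 0.263, 0.403 and 0.261 at P18 and 0.624, 1.79, 1.04 and 0.617 at P28. All 4 P28 libraries lay above all 4 P18 libraries, P28 replicates 2 and 4 included, which had the lowest and the highest class II levels. The ratio was chosen with the values known, so it was not tested. Other ratios taken within a library, of RT1-Da to Cd74 and of C1qa, Tyrobp and Cd68 to Csf1r, overlapped between ages. Dendritic cells and B cells also carry class II, and the levels of B cell markers are given above. Of 8 dendritic cell markers, 6 were in the table and summed to 0.0904 to 14.6 CPM at P18 and 0.163 to 9.82 CPM at P28, led by Zbtb46 and Batf3. The part of those cells in the ratio was not tested.

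**Figure D4:**
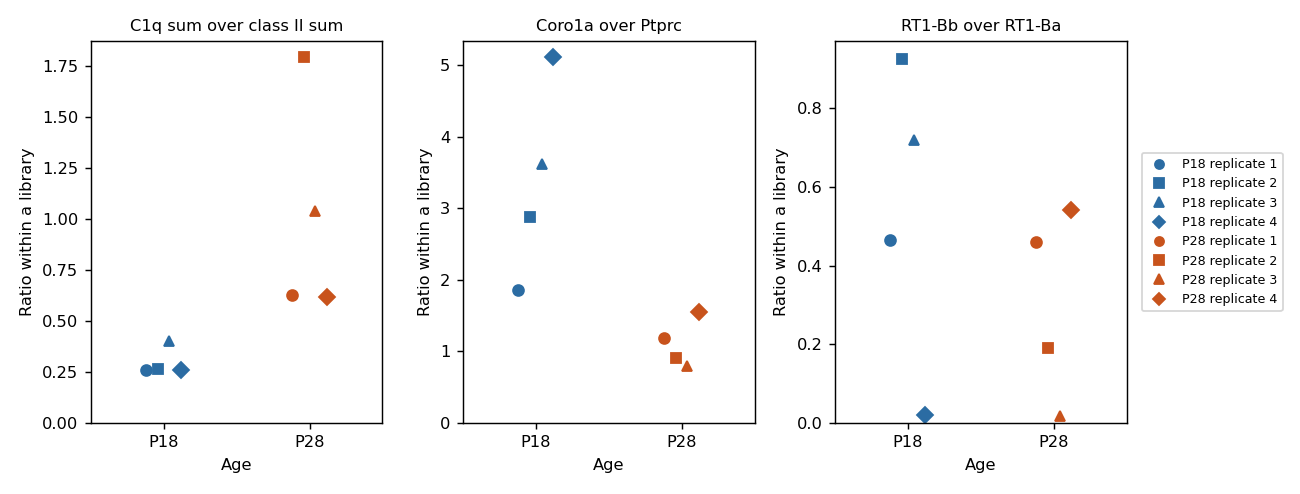
Ratios within each library by age, from left: summed CPM of C1q over that of MHC class II, Coro1a over Ptprc, and RT1-Bb over RT1-Ba, with 1 point per library. The first ratio is higher and the second lower in every P28 library than in any P18 library, and the third is near 0 in P18 replicate 4 and P28 replicate 3.

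Across the members, the P28 libraries spread over a wider range than the P18 libraries. Summed over the 31 genes, the level was 2352, 2947, 3218 and 2916 CPM (P18) and 3713, 1197, 4169 and 5132 CPM (P28). P28 replicate 2 was the lowest of the 8 libraries for 13 of the 30 tested members, P18 replicate 1 for 9, and P28 replicate 4 was the highest for 13. The median deviation of the members from their own mean over the 8 libraries was -1.10 on the log2 scale in P28 replicate 2 and 0.59 in P28 replicate 4, where that of all genes tested was 0.11 and -0.049. In P28 replicate 2, 27 of 30 members lay below their mean, the exceptions being Cd163, Mrc1 and Cd14. P28 replicate 2 was also the library with the most epithelial RNA, its 7 epithelial markers summing to 3625 CPM, against 232, 1009.6 and 45.4 CPM in P28 replicates 1, 3 and 4. Its sum was led by the keratin genes Krt14 (2505 CPM) and Krt5 (1049 CPM). P18 replicate 1 came next, at 3255 CPM, led instead by the enamel matrix gene Ambn (2329 CPM, against 1.25 CPM in P28 replicate 2). Endothelial markers were highest there as well, at 810.4 CPM against 451 to 487 CPM in the other P28 libraries. Their part in the low member levels was not tested.

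**Figure D5:**
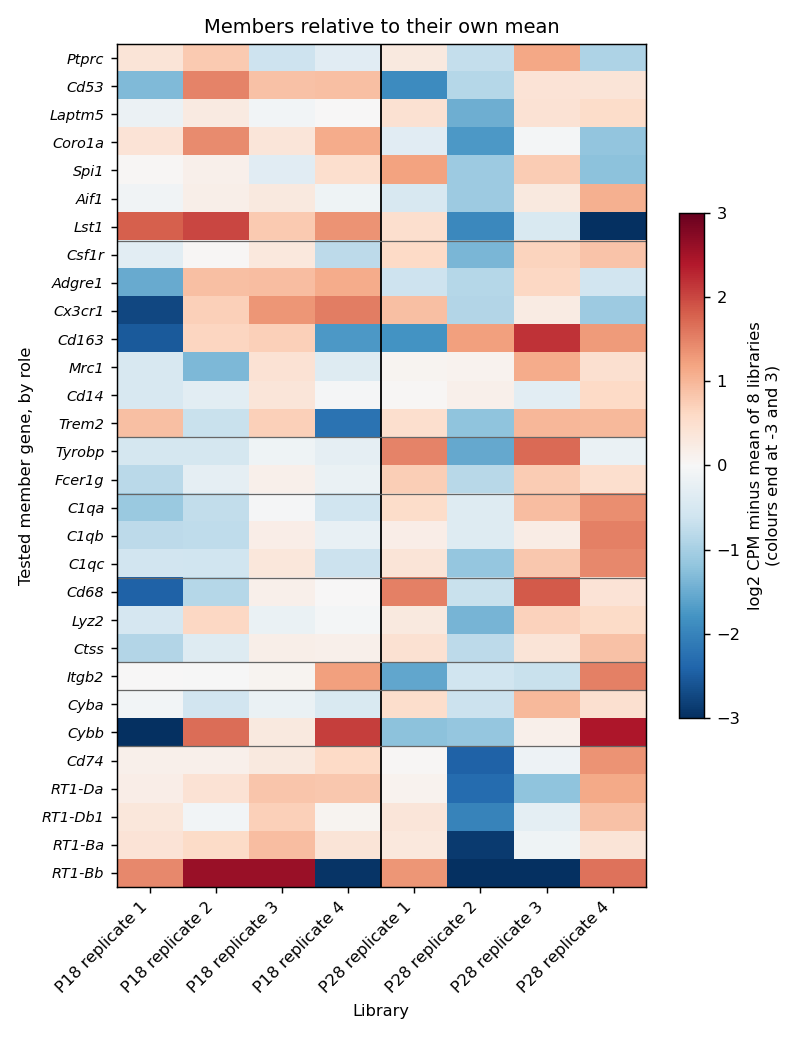
Log2 CPM of the 30 tested members minus each member's mean over the 8 libraries, with libraries as columns, P18 left of the black line, and members as rows grouped by role. The column of P28 replicate 2 is blue for 27 of 30 members, and the MHC class II rows are red in P28 replicate 4.

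Other genes of antigen presentation were read from lists of the pathway. Of 19 genes of class II processing and control, 12 were tested and 0 were called in either direction by edgeR (median log2 fold change 0.062). At an unadjusted p under 0.05, 1 lay higher, against 7.45% of all genes. Ctsd, the lysosomal protease cathepsin D, lay at 348, 311, 357 and 401 CPM (P18) and 584, 384, 742 and 640.4 CPM (P28), with P28 replicates 1, 3 and 4 above every P18 library (0.73 ± 0.21, by edgeR adjusted p = 0.132). Ctsl, cathepsin L, had a log2 fold change of 0.39 ± 0.22 (adjusted p = 0.466). Ciita, the co-activator of class II transcription, was not tested and had 1, 1, 1 and 345 counts at P18 and 0, 21, 74 and 0 counts at P28. RT1-DMa and RT1-DMb, the peptide exchange factor of class II loading, are listed at 0 counts in all 8 libraries.

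Class I presentation held a called gene. Of 18 tested genes of the class I list, 1 was called higher and 0 lower by edgeR (0.516% and 0.420% of all genes). A log2 fold change above 0 was found for 14 (50.3% of all genes), with a median of 0.35. B2m, the beta 2 microglobulin shared by all class I molecules, rose from 657, 613, 568 and 545 CPM at P18 to 1198, 1027, 1518 and 905 CPM at P28. Every P28 library lay above every P18 library, P28 replicate 2 included (log2 fold change 0.96 ± 0.19, adjusted p = 0.0418). The call held without P28 replicates 2 or 4 and ended without any of the other 6 libraries (adjusted p up to 0.159), while the log2 fold change was 0.81 to 1.07 over the 8 fits. Unlike class II, class I is made by nearly all cells.

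Of 8 tested genes of interferon gamma signalling, which induces class II, 0 were called by edgeR, and the median log2 fold change was 0.24. At an unadjusted p under 0.05, 1 lay higher, against 7.45% of all genes. Ifngr2, a chain of the interferon gamma receptor, was at a log2 fold change of 0.72 ± 0.32 (by edgeR, adjusted p = 0.328), and Ifng had 0 counts in all 8 libraries. That allows up to 0.108 to 0.624 CPM by library. Of 13 tested growth factors, receptors and transcription factors of macrophages, 0 were called by edgeR, with a median of 0.42. Here 2 lay higher at an unadjusted p under 0.05, against the same 7.45% of all genes. Csf2ra, a subunit of the GM-CSF receptor, lay at 7.68, 12.5, 14.9 and 10.8 CPM (P18) and 37.2, 27.7, 75.3 and 27.7 CPM (P28), and every P28 library was above every P18 library (1.87 ± 0.48, adjusted p = 0.0928). Il34, a ligand of Csf1r, lay at 22.1, 37.3, 30.4 and 44.6 CPM (P18) and 68.4, 78.0, 79.8 and 51.8 CPM (P28), likewise with no overlap (1.05 ± 0.31, adjusted p = 0.136). For Csf1, the other ligand, the log2 fold change was 0.16 ± 0.67 (adjusted p = 0.943). Over all genes tested, 4.91% had every P28 library above every P18 library, as Csf2ra and Il34 had.

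Of 22 tested macrophage surface and secreted genes, 1 was called higher and 0 lower (0.516% and 0.420% of all genes). In this list 11 lay above 0 and 11 below, with a median of 0.00022. The called gene was Cd9, a tetraspanin that many cell types carry. It rose from 578, 702, 663 and 772 CPM (P18) to 1623, 1575, 1605 and 1545 CPM (P28), a log2 fold change of 1.23 ± 0.16 (by edgeR, adjusted p = 0.00681), and kept its call in 7 of 8 fits that left out 1 library (adjusted p = 0.0577 without P18 replicate 2). Of 15 tested genes of Fc receptors and ITAM signalling, 0 were called (0 at an unadjusted p under 0.05) and 10 lay below 0, with a median of -0.52. The kinase genes Btk and Lyn had log2 fold changes of -2.93 ± 1.52 and 0.55 ± 0.31 (adjusted p = 0.410 and 0.464).

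Complement genes beyond C1q gave 0 edgeR calls among 9 tested, with a median log2 fold change of 0.49. At an unadjusted p under 0.05, 2 lay higher, against 7.45% of all genes. C1s, a protease in the same complex as C1q, lay at 326, 269.8, 235 and 226 CPM (P18) and 413, 270.1, 649 and 658 CPM (P28) (0.91 ± 0.27, by edgeR adjusted p = 0.140, and 0.0372 without P28 replicate 2). Leaving out any other library gave no call of C1s (adjusted p up to 0.319). C2, a later component of the cascade, lay at 33.4, 18.2, 69.2 and 26.7 CPM (P18) and 74.6, 24.9, 174 and 87.6 CPM (P28) (1.29 ± 0.54, adjusted p = 0.292). In both genes P28 replicate 2 lay within the P18 range and P28 replicates 1, 3 and 4 above it, the same split as in C1qa. Of the 4 tested oxidase partner genes 0 were called (0 at an unadjusted p under 0.05), and Ncf4 and Rac1 had log2 fold changes of -1.12 ± 0.62 and -0.36 ± 0.24 (adjusted p = 0.443 and 0.531). Of 17 tested genes of leukocyte cytoskeleton and adhesion 0 were called, with a median of -0.041. At an unadjusted p under 0.05, 1 lay higher and 2 lower, against 7.45% and 7.10% of all genes. Rgs10, a regulator of G protein signalling, and Cotl1, an actin-binding protein, had log2 fold changes of 0.99 ± 0.32 and -0.78 ± 0.29 (adjusted p = 0.172 and 0.237). The DESeq2 Wald test also called the list genes Csf2ra, Il34, Ctsd and C1s higher at P28 (adjusted p = 0.00570, 0.0399, 0.0236 and 0.0269). That test called 2.85% of all genes higher.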

How the data were processed

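The authors deposited raw counts per gene symbol, which were used as deposited. The tools named in the submitters' processing notes are edgeR 3.16.5, HTSeq 0.9.1 and STAR 2.5.3a, and the build is rn6. Which step each tool served, the gene annotation and the strand option are not given in these sources. Libraries were made from total RNA of micro-dissected tissue with a low-input kit, per the labels' protocols. A further 40 columns of the table belong to samples not analysed here, and the authors' normalized values were left aside. The edgeR 4.0.16 quasi-likelihood test (R 4.3.3, 2-sided) was fitted with TMM scaling and age as the only term to the 10472 genes that passed the expression filter by age (minimum count 10), and was tested on simulated data. The SE is the log2 fold change divided by the root of F. CPM are given by library or as mean ± SD. Nothing in the labels names molecular identifiers, so limits from counts cover counting error only, and p-values measure the spread between these animals. Alternatives were 2 other scalings, DESeq2 1.42.0, limma 3.58.1 with voom, 2 other filters, a replicate block and leaving out each library.

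The members and lists were chosen with earlier results of these data known. All 31 members are named. Of each pathway list, called genes are named and otherwise the 2 with the lowest p, within a rule that allowed up to 4; of each marker list, the 2 genes with the highest mean level. Csf1, Ciita, Krt5, Tnmd, RT1-DMa, RT1-DMb and Ifng were named after their values were seen, and some list genes are not reported here. List genes under another symbol were matched through the RefSeq table of assembly GRCr8, and start regions are from RefSeq on GRCr8, matched for 24 of 31 members. Coordinates on rn6 were not used.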

Additional observations from a re-analysis of the deposited data

Results flagged for a closer look

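Of 80 groups of 4 libraries examined (31 members and 9 summed levels at 2 ages), 12 held a library whose gap to the nearest other exceeded Dixon's critical value for 4 samples as a share of the group's range. Chance gives about 1 in 20 groups, and the sums share genes with the members. At P28, replicate 2 was low for Laptm5 (37.2 CPM, others 139 to 150.2), and replicate 3 was high for Adgre1 (20.5 CPM, others 7.31 to 8.95). P28 replicate 4 was high for Itgam (1.04 CPM, others 0 to 0.0815), Itgb2 (37.7 CPM, others 4.40 to 8.67), Cybb (40.4 CPM, others 3.11 to 8.32) and the summed integrin genes (38.7 CPM). At P18, replicate 1 was low for Adgre1 (4.61 CPM, others 24.96 to 28.8), and for Itgam it was the library with a count (0.0904 CPM, others 0). P18 replicate 3 was high for C1qc (183 CPM, others 93.7 to 97.9) and for the summed macrophage receptors (323 CPM, others 187 to 204). P18 replicate 4 was high for Itgb2 (30.95 CPM, others 13.005 to 13.9) and so for the summed integrin genes (30.95 CPM).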

How the results depend on the processing

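Over all genes, 54 were called higher by edgeR and 44 lower. The counts were 297 and 263 with the DESeq2 Wald test, 175 and 132 with voom and quality weights, and 4 to 110 and 5 to 105 leaving out 1 library (fewest without P18 replicate 2, most without P28 replicate 4). Members called were 1 higher and 1 lower with the Wald test and 0 to 2 higher and 0 lower leaving out 1 library; the other alternatives run gave 0. The median log2 fold change of the members was 0.0077 with voom and 0.036 to 0.41 leaving out 1 library (lowest without P28 replicate 3, highest without P28 replicate 2). With voom the sign turned for Aif1 (-0.40), Laptm5 (-0.097) and Lyz2 (-0.081). Leaving out 1 library, log2 fold changes crossed 0 for 7 members that were not called: -0.51 to 0.31 for Ptprc, -0.32 to 0.47 for Spi1, -0.38 to 0.36 for Aif1, -1.32 to 0.13 for Itgb2, -1.73 to 0.30 for Cybb, -0.81 to 0.27 for Cd74 and -0.65 to 0.092 for RT1-Db1. The cause was not tested.

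With the subject number as a replicate block, 16 genes were called higher and 10 lower, and 0 members. The sign turned for Aif1 (-0.12), Cybb (0.097), Ptprc (-0.14) and Spi1 (-0.17). Same-numbered libraries did not deviate together from their group means (correlations -0.00278, -0.0196, -0.0128 and 0.00189), and 0 of 8 libraries correlated best with their own number. This check gave no sign that they share more than a number, and it cannot exclude it. The call of B2m had an adjusted p of 0.0997 with the block (log2 fold change 0.94), and that of Acp5 0.151 (2.76). The call of Acp5 also ended with upper-quartile scaling, with voom and with the stricter filter (adjusted p = 0.0517, 0.0711 and 0.0506). The alternatives for B2m, Cd9 and the other genes outside the members were chosen after seeing the data. The shallowest library, P28 replicate 4, limits what can be said of members with few counts, such as Lst1, Cd163 and Itgam.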

Other observations

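Some macrophage genes outside the members were named after their values were seen. Gpnmb, a transmembrane glycoprotein of macrophages and osteoclasts, lay at 44.7, 24.8, 89.1 and 64.0 CPM (P18) and 238, 68.4, 209 and 176 CPM (P28). P28 replicates 1, 3 and 4 were the highest libraries, and the log2 fold change was 1.63 ± 0.43 (by edgeR, adjusted p = 0.0958, and 0.0366 without P28 replicate 2, and 0.00551 by the DESeq2 Wald test). Leaving out any other library gave no edgeR call (adjusted p up to 0.230). Folr2, a folate receptor of resident macrophages, lay at 12.8, 24.96, 47.2 and 8.04 CPM (P18) and 118, 16.0, 102 and 92.8 CPM (P28), with the same libraries highest (1.82 ± 0.63, adjusted p = 0.192 by edgeR and 0.0449 by the DESeq2 Wald test). Lymphocyte and mast cell markers were sparse or uneven. The 10 T and NK cell markers summed to 6.28 to 24.6 CPM at P18 and 6.85 to 43.5 CPM at P28, led by Cd2 and Cd8a, with Cd247 and Cd8b at 0 counts in all 8 libraries. The 9 mast cell markers summed to 101, 56.3, 163 and 221 CPM (P18) and 97.8, 17.0, 0.734 and 218 CPM (P28), led by Tpsab1 and Tpsb2.

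The 6 osteoblast markers summed to 3667 to 5693 CPM at P18 and 4869 to 10129.6 CPM at P28, led by Ibsp and Alpl. The 7 ligament fibroblast markers in the table, of 8 listed, summed to 96064 to 137356 CPM and 137736 to 195798 CPM, led by Col1a1 and Col3a1. In the same list Tnmd, a tendon and ligament membrane protein gene, lay at 734, 479, 487 and 540.2 CPM (P18) and 124.7, 51.1, 133 and 106 CPM (P28) and fell at P28 with no overlap (log2 fold change -2.43 ± 0.29, by edgeR adjusted p = 0.00608, called in 8 of 8 fits that left out 1 library).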
